A study of Mus musculus with 5 samples.

Results

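The genes described here are the Src family kinases Src, Fyn, Yes1, Lyn, Lck, Fgr and Blk with 2 partners, Csk and Ptk2. They were followed by name: every ChIP-seq peak to which the deposited lists attach 1 of these 9 gene names was taken. This gave 28 of the 89451 peaks in 3 lists. Src family kinases sit at the inner face of the plasma membrane and pass signals from integrins and growth factor receptors to the cytoskeleton and the nucleus by phosphorylating tyrosines. Csk holds them inactive by phosphorylating a tyrosine in their tail. Ptk2 encodes focal adhesion kinase, which binds Src at sites where cells attach to the matrix and is activated together with it.

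All cells were derived from 46C mouse embryonic stem cells and taken at the CP (cardiac progenitor) stage of differentiation. Zhx1-KO cells were made from them with CRISPR/Cas9 and guides near the start and the stop of Zhx1, a gene for a homeobox protein with zinc fingers, and 46C-Ctrl cells kept the gene. In ChIP-seq an antibody recovers a protein with the DNA it sits on, and a peak is a stretch of DNA that was recovered often. The groups were hnRNPA1 ChIP in Zhx1-KO (51545 peaks), ZHX1 ChIP in 46C-Ctrl (23244 peaks) and hnRNPA1 ChIP in 46C-Ctrl (14662 peaks). hnRNPA1 binds RNA and takes part in splicing. The inputs of both lines were not used. With 1 library per group no difference between groups could be tested, and every count describes those libraries alone. The lists hold positions and names with no height, score or read count, so depth is unknown, and intervals (Wilson, 95%) cover counting error only. Peak lists hold no RNA levels, and the labelled cell type could not be checked against markers. Zhx1 itself (chr15:58047003-58076541, minus strand) held 0 Zhx1-KO hnRNPA1 peaks, 1 ZHX1 peak and 0 control hnRNPA1 peaks. The 1 Zhx1-KO hnRNPA1 peak named Zhx1 lay outside the gene, 2.72 kb upstream of its 5′ end. The control hnRNPA1 list had no peak inside the gene either, so the lists do not check the deletion.

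Src, the founding member of the family, carries the sequences that matter most here, because its start was also probed by ChIP-qPCR. In that assay a primer pair amplifies 1 short stretch from the recovered DNA. Both primers matched GRCm38 once, and they enclose 90 bp at chr2:157418565-157418654, inside an intron of Src. The centre of this amplicon lay 0.165 kb downstream of the 5′ end of the gene (GENCODE) and 5.68 kb upstream of the start that RefSeq gives. It fell wholly inside a control hnRNPA1 peak. The first sequence is the amplicon with the primer sites in capitals, and the second is the middle of the ZHX1 peak closest to it, at chr2:157413281-157413580, with TAGGG and CCAAT of either strand in capitals.
Src amplicon: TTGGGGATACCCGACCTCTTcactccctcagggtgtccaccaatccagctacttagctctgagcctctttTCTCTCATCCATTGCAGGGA
Src upstream ZHX1 peak: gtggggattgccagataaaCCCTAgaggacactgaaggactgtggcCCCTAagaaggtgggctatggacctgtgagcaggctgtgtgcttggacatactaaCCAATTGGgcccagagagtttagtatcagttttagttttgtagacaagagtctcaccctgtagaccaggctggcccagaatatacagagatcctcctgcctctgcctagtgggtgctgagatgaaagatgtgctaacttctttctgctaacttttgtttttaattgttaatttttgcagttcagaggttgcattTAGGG
hnRNPA1 prefers RNA with a core that in DNA letters reads TAGGG, which on the opposite strand becomes CCCTA. The factor NF-Y recognises CCAAT, which on the opposite strand becomes ATTGG. The upstream stretch held 3 matches to TAGGG and 2 to CCAAT, and both CCAAT matches lie in 1 palindrome. A match describes letters and not a bound site.

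Src lies on chr2:157418444-157471862, plus strand, over 53.4 kb with 7 annotated transcript starts. It was named by 3 Zhx1-KO hnRNPA1 peaks, 3 ZHX1 peaks and 3 control hnRNPA1 peaks. The Zhx1-KO hnRNPA1 peaks stood at chr2:157446864-157447100 and chr2:157461002-157461248, both in introns, and at chr2:157486878-157487220, downstream of the gene. The ZHX1 peaks stood at chr2:157413216-157413644, upstream of the gene, at chr2:157444186-157444413 in an intron, and at chr2:157465912-157466253, centred in an intron and reaching into coding sequence. The control hnRNPA1 peaks stood at chr2:157418389-157418682 on the 5′ end, at chr2:157434971-157435193 in an intron, and at chr2:157485333-157485584 downstream of the gene. All 3 lists thus had 2 peaks inside Src, and the 9 peaks spread over 74.0 kb without any overlap.

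The lists differed at the start of Src. The control hnRNPA1 peak was centred 0.091 kb downstream of the 5′ end and covered 69 bases of the first exon, which is untranslated. From the amplicon the nearest Zhx1-KO hnRNPA1 peak was 28.2 kb away, the nearest ZHX1 peak 4.92 kb, and the control hnRNPA1 peak covered it. By ChIP-qPCR the paper reported ZHX1 enrichment at the Src promoter, and weaker hnRNPA1 enrichment there after Zhx1 knockout. From ChIP-seq signal, which the lists do not hold, the paper also reported weaker hnRNPA1 binding at that promoter without Zhx1. Measured from the start that RefSeq gives, the control hnRNPA1 peak lay 5.76 kb upstream, so whether it counts as a promoter peak depends on the annotation. Absence of a peak from the Zhx1-KO or the ZHX1 list has no height behind it: how close the site came to being called cannot be read from the lists. The map of Src peaks shows these positions.

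**Figure D1:**
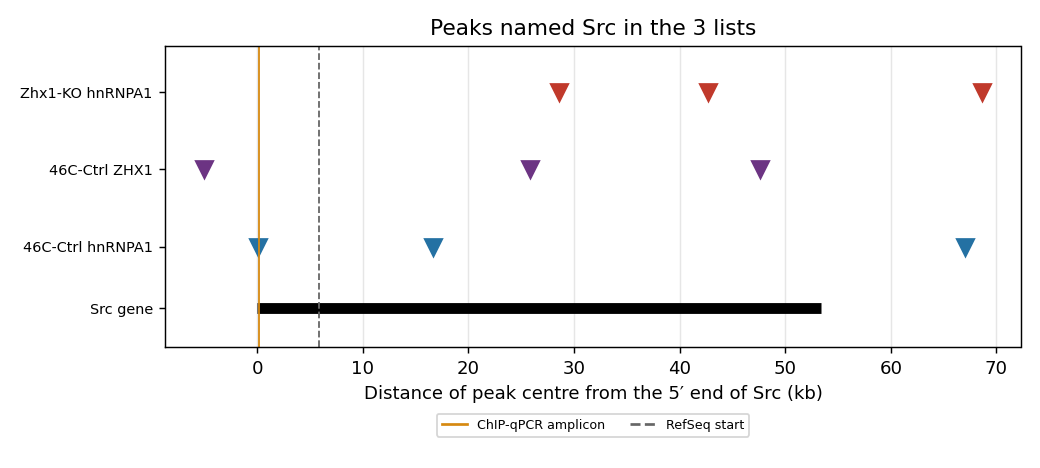
Centres of the 9 peaks named Src (triangles), in kb from the 5′ end of the gene, with 1 row per list and the gene as a black bar. The amplicon line at 0.165 kb meets a control hnRNPA1 triangle, and the first Zhx1-KO hnRNPA1 triangle stands at 28.5 kb.

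Further into Src, peaks of different lists came close without meeting. A Zhx1-KO hnRNPA1 peak and a ZHX1 peak were 2.45 kb apart in an intron, and another such pair was 4.66 kb apart near the 3′ end. Downstream of the gene a Zhx1-KO hnRNPA1 peak and a control hnRNPA1 peak were 1.29 kb apart. The upstream ZHX1 peak and the control hnRNPA1 peak on the 5′ end were 4.74 kb apart. All 9 were single-copy sequence by the measure used here, the median number of times that the 32-base words of a peak occur in the genome. Naming of Src by at least 3 peaks in each list was shared with 2.76% of protein-coding genes. Exactly 3 in each list was found for 10 other genes, of which Sec23ip (39.9 kb), Hapln1 (71.9 kb) and Foxo6 (20.3 kb) were closest to Src in length. None of those 3 genes had a peak within 2 kb of a transcript start.

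Fyn, a widely expressed kinase also known for its work in T cells and neurons, lies on chr10:39368855-39565381, plus strand, over 196.5 kb. It was named by 3 Zhx1-KO hnRNPA1 peaks, 3 ZHX1 peaks and 0 control hnRNPA1 peaks. The Zhx1-KO hnRNPA1 peaks stood at chr10:39406387-39406637, chr10:39410413-39410636 and chr10:39471833-39472082. The ZHX1 peaks stood at chr10:39410133-39410369, chr10:39416415-39416642 and chr10:39445805-39446032. All 6 lay in introns. The second Zhx1-KO hnRNPA1 peak and the first ZHX1 peak were 43 bp apart, the closest pair among all members, and both are shown with the same motifs in capitals.
Fyn Zhx1-KO hnRNPA1 peak: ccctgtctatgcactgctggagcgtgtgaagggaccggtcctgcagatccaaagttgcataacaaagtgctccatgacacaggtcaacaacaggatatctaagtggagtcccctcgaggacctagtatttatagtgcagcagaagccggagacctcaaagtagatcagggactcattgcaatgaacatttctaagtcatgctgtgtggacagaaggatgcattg
Fyn ZHX1 peak: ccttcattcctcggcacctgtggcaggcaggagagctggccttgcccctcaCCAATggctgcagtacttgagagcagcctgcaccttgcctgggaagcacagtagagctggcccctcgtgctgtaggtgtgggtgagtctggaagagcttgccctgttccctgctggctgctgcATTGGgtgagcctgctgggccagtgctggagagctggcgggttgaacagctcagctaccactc
The Zhx1-KO hnRNPA1 stretch of 224 bases held neither motif, and the ZHX1 stretch of 237 bases held 2 matches to CCAAT. GC content was 48.7% in the Zhx1-KO hnRNPA1 stretch and 62.0% in the ZHX1 stretch.

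The name understates the Zhx1-KO hnRNPA1 peaks inside Fyn. By position 7 Zhx1-KO hnRNPA1 peaks, 3 ZHX1 peaks and 0 control hnRNPA1 peaks lay in the gene. The 4 further Zhx1-KO hnRNPA1 peaks were named Traf3ip2, a neighbouring gene, and stood 131.9, 145.2, 176.6 and 190.8 kb downstream of the 5′ end of Fyn. The second of them, at chr10:39513709-39514306, was 598 bp wide, the widest peak at any member. Per 100 kb of gene, Fyn held 3.56 Zhx1-KO hnRNPA1 peaks, 1.53 ZHX1 peaks and 0 control hnRNPA1 peaks. Src held 3.74 in each of the 3 lists. Over all protein-coding genes the densities were 2.11 for Zhx1-KO hnRNPA1, 0.985 for ZHX1 and 0.629 for control hnRNPA1. The densities of Fyn and Src rest on at most 7 peaks per list, and the 0 at Fyn was not tested against that background. The nearest control hnRNPA1 peak to Fyn was 15.9 kb outside it, also named Traf3ip2.

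Yes1, another kinase found in most cell types, lies on chr5:32611171-32687057, plus strand, over 75.9 kb. It was named by 1 Zhx1-KO hnRNPA1 peak, 2 ZHX1 peaks and 1 control hnRNPA1 peak. The Zhx1-KO hnRNPA1 peak, at chr5:32611259-32611484, was centred 36 bp from the nearest transcript start and 200 bp from the start in RefSeq, in untranslated sequence of the first exon. Its GC content of 75.8% was the highest of the 28. The ZHX1 peaks, at chr5:32545993-32546390 and chr5:32589597-32589830, lay 65.0 and 21.5 kb upstream of the gene, and the control hnRNPA1 peak, at chr5:32607734-32607956, lay 3.33 kb upstream. At Yes1 the peak on the start was thus a Zhx1-KO hnRNPA1 peak, and at Src it was a control hnRNPA1 peak. A second Zhx1-KO hnRNPA1 peak inside Yes1 was named Pisd, and its sequence occurs 623 times by the median word.

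Lyn, a kinase of B cells and myeloid cells, lies on chr4:3678115-3813122, plus strand, over 135.0 kb. It was named by 0 Zhx1-KO hnRNPA1 peaks, 1 ZHX1 peak and 0 control hnRNPA1 peaks. The ZHX1 peak, at chr4:3677758-3678047, was centred 213 bp upstream of the transcript start, the only ZHX1 peak named for a member within 2 kb of one. It is printed because it lies directly before that start.
Lyn ZHX1 peak: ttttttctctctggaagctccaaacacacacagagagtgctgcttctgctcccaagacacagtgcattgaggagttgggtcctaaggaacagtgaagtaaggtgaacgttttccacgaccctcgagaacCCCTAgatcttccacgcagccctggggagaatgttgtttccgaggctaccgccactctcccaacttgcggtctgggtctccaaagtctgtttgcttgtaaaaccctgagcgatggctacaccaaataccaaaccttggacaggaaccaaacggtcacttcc
Its 290 bases held 1 match to TAGGG, 0 to CCAAT and 9 CpG. By position 2 Zhx1-KO hnRNPA1 peaks lay inside Lyn, both named 6330407A03Rik, and their words occur 11519 and 2 times by the median. No control hnRNPA1 peak came closer to Lyn than 115.1 kb.

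Lck, Fgr and Blk act mainly in blood cells. Lck, the kinase of T cell receptor signalling, was named by 0 Zhx1-KO hnRNPA1 peaks, 0 ZHX1 peaks and 1 control hnRNPA1 peak, in an intron at chr4:129565886-129566108. The gene lies on chr4:129548344-129573641, minus strand. Fgr, a myeloid kinase at chr4:132974095-133001910, had no peak under its name or inside it. Its nearest peaks were 36.8 kb away for Zhx1-KO hnRNPA1, 106.8 kb for ZHX1 and 50.8 kb for control hnRNPA1. Blk, a B cell kinase at chr14:63372836-63417037, had none either, with nearest peaks at 78.9 kb for Zhx1-KO hnRNPA1, 104.7 kb for ZHX1 and 354.0 kb for control hnRNPA1. Having no named peak in any list was shared by 2 of the 9 members and by 30.2% of protein-coding genes.

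Csk and Ptk2 are the partners. Csk, on chr9:57626646-57653631, minus strand, was named by 0 Zhx1-KO hnRNPA1 peaks, 0 ZHX1 peaks and 1 control hnRNPA1 peak, which lay 13.5 kb upstream at chr9:57667060-57667282. That peak had a median copy number of 5.5 in words of 32 bases and of 1 in words of 50 bases. Ptk2 lies on chr15:73205102-73423280, minus strand, and at 218.2 kb is the longest of the 9. It was named by 2 Zhx1-KO hnRNPA1 peaks, 1 ZHX1 peak and 3 control hnRNPA1 peaks. A Zhx1-KO hnRNPA1 peak at chr15:73377657-73378098 and a control hnRNPA1 peak at chr15:73376788-73377085 lay 571 bp apart in an intron. Both were repeats: 98.6% of the Zhx1-KO hnRNPA1 peak and 100% of the control hnRNPA1 peak is masked in the assembly, with median copy numbers of 101 and 262. Reads without a unique position had been removed, so the copy number touches what could be called there, and its part in this pair was not tested.

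The other Ptk2 peaks were single-copy. The second Zhx1-KO hnRNPA1 peak lay 21.5 kb upstream, and the ZHX1 peak lay in an intron at chr15:73359514-73359860. The other control hnRNPA1 peaks lay 7.08 and 42.8 kb upstream. By position 1 Zhx1-KO hnRNPA1 peak, 2 ZHX1 peaks and 2 control hnRNPA1 peaks were inside Ptk2. Of these, 1 ZHX1 peak was named Ago2 and overlapped coding sequence 134 bp from an internal transcript start. Another, a control hnRNPA1 peak, was named Mir151 and also reached into coding sequence of Ptk2. The map of the remaining members shows filled triangles for peaks that carry the name of the gene and open ones for peaks inside it under another name.

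**Figure D2:**
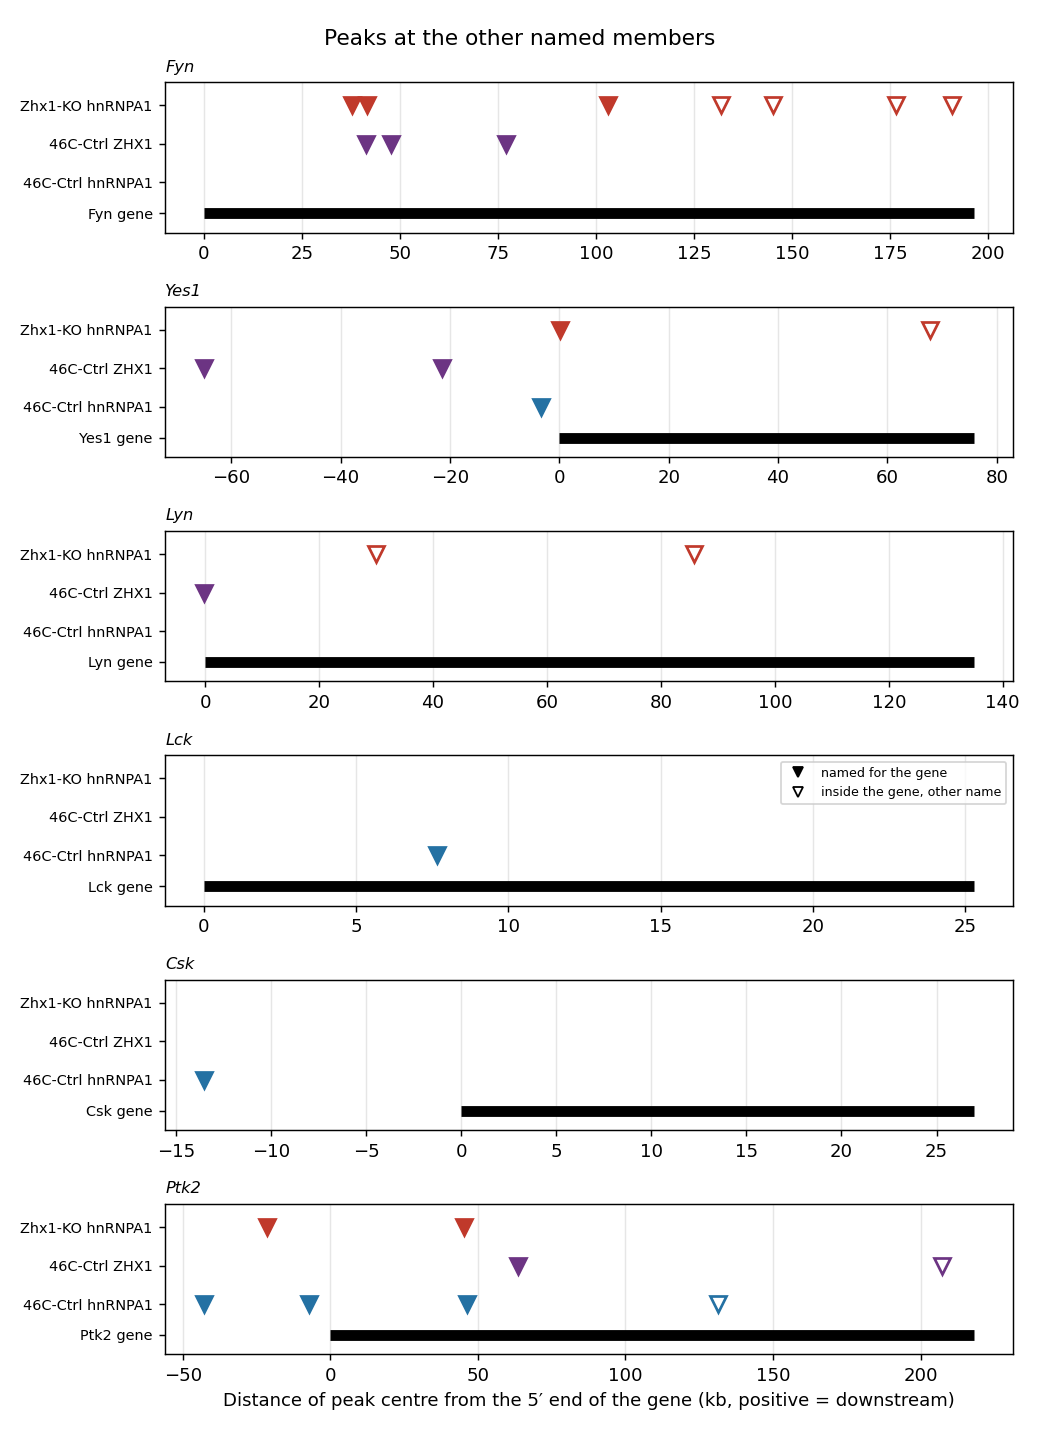
Centres of peaks at Fyn, Yes1, Lyn, Lck, Csk and Ptk2 (triangles), in kb from the 5′ end of each gene along its own strand, with 1 row per list. The 4 open Zhx1-KO hnRNPA1 triangles in Fyn carry the name Traf3ip2, and no control hnRNPA1 triangle stands in Fyn.

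Over the 9 genes the numbers of named peaks were close to each other although the Zhx1-KO hnRNPA1 list was 3.52 times as long as the control hnRNPA1 list. Members were named by 9 Zhx1-KO hnRNPA1 peaks (0.0175% of the list, 0.00919 to 0.0332), 10 ZHX1 peaks (0.0430%, 0.0234 to 0.0792) and 9 control hnRNPA1 peaks (0.0614%, 0.0323 to 0.117). Of the 9 genes, 4 were named by the Zhx1-KO hnRNPA1 list, against 57.8% of 21911 protein-coding genes. The ZHX1 list named 5, against 40.5%, and the control hnRNPA1 list named 5, against 31.2%. Src, Yes1 and Ptk2 were named in all 3 lists, as were 17.9% of protein-coding genes. With 9 genes these counts do not set the members apart from the background.

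Counting by position gave another order. There were 14 Zhx1-KO hnRNPA1 peaks inside member genes (0.0272% of the list, 0.0162 to 0.0456), 7 ZHX1 peaks (0.0301%, 0.0146 to 0.0622) and 5 control hnRNPA1 peaks (0.0341%, 0.0146 to 0.0798). Per 100 kb of member gene this was 1.74 Zhx1-KO hnRNPA1 peaks, 0.871 ZHX1 peaks and 0.622 control hnRNPA1 peaks, beside 2.11, 0.985 and 0.629 over all protein-coding genes. A Zhx1-KO hnRNPA1 peak lay inside 5 of the 9 genes (42.3% of protein-coding genes), a ZHX1 peak inside 3 (28.1%) and a control hnRNPA1 peak inside 3 (20.5%). Zhx1-KO hnRNPA1 peaks inside the member genes were 2.8 times as many as control hnRNPA1 peaks. The whole lists, which include peaks outside genes, differed 3.52 times. With 5 control hnRNPA1 peaks these ratios cannot be told apart. Fyn alone held 7 of the 14, and the other 8 genes held 7 Zhx1-KO hnRNPA1 peaks, 4 ZHX1 peaks and 5 control hnRNPA1 peaks. Of the 26 peaks inside member genes 9 carried another gene's name, and of the 28 named peaks 11 lay outside the gene they were named for. Neither count has a share over all peaks beside it. The name equalled the gene with the nearest curated RefSeq start for 26 of the 28. Over all peaks it did for 91.0% of Zhx1-KO hnRNPA1, 91.2% of ZHX1 and 90.9% of control hnRNPA1 peaks, so the members are not particular in this.

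**Figure D3:**
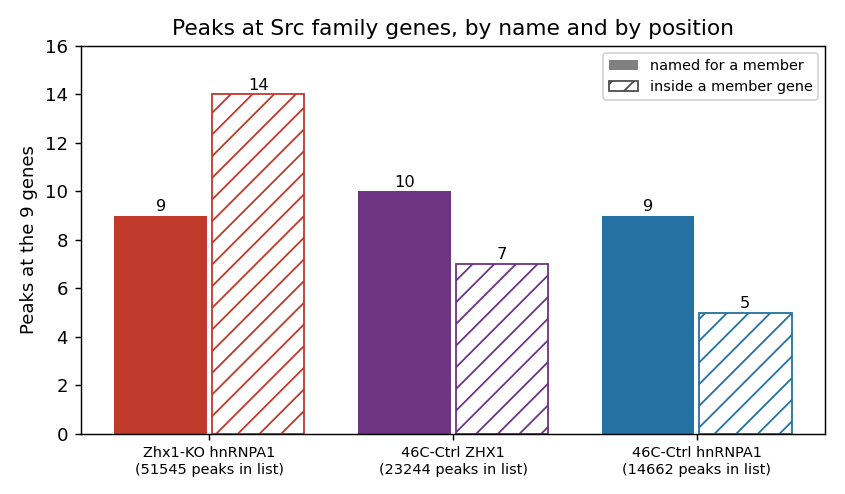
Number of peaks per list at the 9 genes, by deposited name (filled bars) and by position inside the gene (hatched bars). The filled bars stand at 9, 10 and 9, and the hatched bars at 14, 7 and 5.

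Few peaks stood on a transcript start. Within 2 kb of a start of the named gene there was 1 member peak in each list: Yes1 in Zhx1-KO hnRNPA1, Lyn in ZHX1 and Src in control hnRNPA1. Over the peaks whose name could be placed in the annotation, the share was 8.7% of 49787 Zhx1-KO hnRNPA1 peaks, 10.1% of 22456 ZHX1 peaks and 8.55% of 14135 control hnRNPA1 peaks. The median distance of member peaks from a start was 13.5 kb for Zhx1-KO hnRNPA1, 9.38 kb for ZHX1 and 10.7 kb for control hnRNPA1, beside 33.1, 29.6 and 28.7 kb over the same annotated peaks of those lists. It runs to the nearest of all annotated starts of the named gene, from 4 starts at Lyn to 14 at Ptk2. From the 5′ end of the gene the distances were equal or longer. All peaks were not matched on number of starts, so the medians do not place member peaks closer to promoters. Of the 28 peaks 16 were centred in an intron of the gene they were named for, a count with no share over all peaks beside it.

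No member peak overlapped a peak of another list: 0 of 9 Zhx1-KO hnRNPA1 peaks, 0 of 10 ZHX1 peaks and 0 of 9 control hnRNPA1 peaks, where 3.02%, 6.5% and 7.73% of all peaks of those lists did. With so few peaks, 0 is near what those shares give. The gap from a member peak to the nearest peak of another list had a median of 17.8 kb for Zhx1-KO hnRNPA1 to ZHX1 (all peaks 31.8 kb) and 14.2 kb for Zhx1-KO hnRNPA1 to control hnRNPA1 (all peaks 50.9 kb). For ZHX1 peaks it was 19.6 kb to Zhx1-KO hnRNPA1 (12.9 kb) and 40.2 kb to control hnRNPA1 (47.5 kb). For control hnRNPA1 peaks it was 11.7 kb to Zhx1-KO hnRNPA1 (12.5 kb) and 19.1 kb to ZHX1 (28.7 kb). The lists differ in length, so each median is read beside that of all peaks of its list. Several member peaks fall in the same gene, so these gaps are not independent. From Zhx1-KO hnRNPA1 to control hnRNPA1 they ran from 571 bp at Ptk2 to 174.6 kb at Fyn. The medians therefore do not place member peaks closer to other lists in general.

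**Figure D4:**
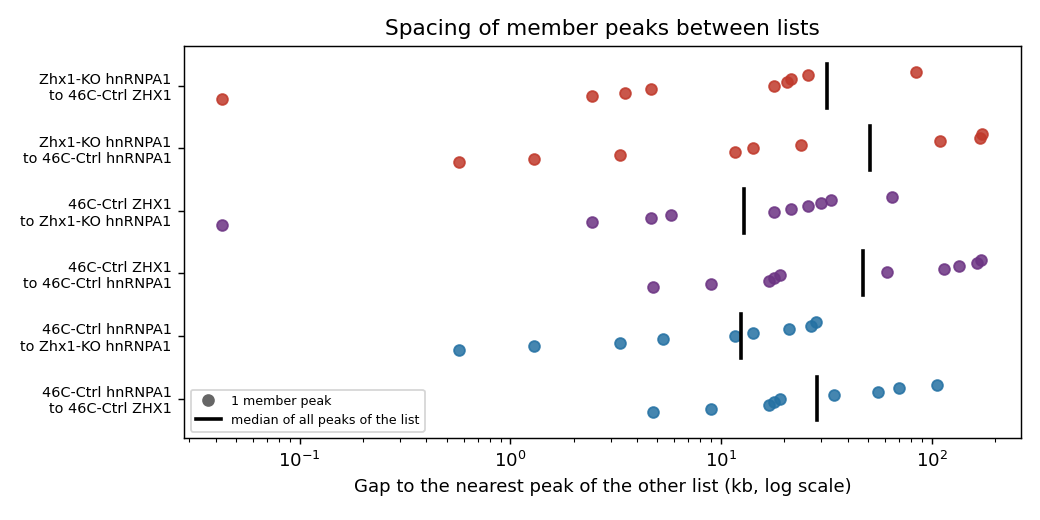
Gap in kb (log axis) from each member peak to the nearest peak of another list, 1 row per ordered pair of lists, with the median of all peaks of the first list as a black line. The Fyn pair at 0.043 kb stands apart at the left, and the other points lie above 0.5 kb.

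Sequence features of the members were mixed. Median width was 250 bp for Zhx1-KO hnRNPA1, 263.5 bp for ZHX1 and 223 bp for control hnRNPA1, beside 271, 259 and 257 bp over all peaks. At the smallest width of their list stood 1 of 9 Zhx1-KO hnRNPA1 peaks (28.0% of the list), 3 of 10 ZHX1 peaks (36.4%) and 6 of 9 control hnRNPA1 peaks (33.7%). Multi-copy sequence, a median of 2 or more, made up 1 Zhx1-KO hnRNPA1 peak (31.4% of the list), 0 ZHX1 peaks (25.2%) and 2 control hnRNPA1 peaks (24.4%). In the central 223 bp, TAGGG of either strand was found in 2 Zhx1-KO hnRNPA1 peaks (28.3% of all), 3 ZHX1 peaks (28.1%) and 1 control hnRNPA1 peak (29.5%). CCAAT was found in 0 Zhx1-KO hnRNPA1 peaks (30.9%), 3 ZHX1 peaks (29.9%) and 4 control hnRNPA1 peaks (30.1%). The motif of 4 runs of at least 3 G, which can fold into a quadruplex, was in none of the 28 (4.11%, 3.59% and 3.06%).

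The wider pathway was followed in 41 genes: other relatives of the family, regulators, and substrates or receptors. Of these, 32 were named by Zhx1-KO hnRNPA1, 21 by ZHX1 and 19 by control hnRNPA1, with 115, 50 and 36 peaks, and 13 were named in all 3 lists. These are 78.0%, 51.2% and 46.3% of the 41 genes, beside 57.8%, 40.5% and 31.2% of protein-coding genes, and 31.7% beside 17.9% for all 3 lists. The genes were not matched to the background on length or expression, and no difference was tested. Among 4 relatives, 3 were named by Zhx1-KO hnRNPA1, 2 by ZHX1 and 2 by control hnRNPA1. Among 12 regulators the numbers were 11, 4 and 4, of which the control hnRNPA1 share (33.3%) is about that of all genes (31.2%). Among 25 substrates and receptors they were 18, 15 and 13, and the shares of all genes named above apply to each group. Frk, a relative of the family, had the most peaks of all 41 in Zhx1-KO hnRNPA1 (11) and control hnRNPA1 (5), and shared the most in ZHX1 (7) with Itgb1, the integrin beta chain through which focal adhesions signal.

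A peak within 2 kb of a transcript start was found for 12 of the 41 genes in Zhx1-KO hnRNPA1 (29.3%, beside 15.9% of protein-coding genes), 3 in ZHX1 (7.32%, beside 8.85%) and 4 in control hnRNPA1 (9.76%, beside 4.77%). The lists differ in length, so 12 and 4 are not compared with each other. Among regulators, Zhx1-KO hnRNPA1 peaks stood downstream of a start by 750 bp at Matk, a kinase related to Csk, 525 bp at Ptpn1, 693 bp at Ptpn6 and 94 bp at Ptpn11, all 3 of them tyrosine phosphatases. Ptpn6 had 2 ZHX1 peaks within 2 kb of a start, of which 1 stood 109 bp downstream of another start of the gene. Control hnRNPA1 peaks lay 1684 bp upstream of a start of Frk, 1279 bp upstream at Srms and 1712 bp upstream at Ptpre, a receptor phosphatase. Egfr, Grb2 and Efs, picked after their values were seen, were the only 3 of the 41 genes with a peak shared between lists. Of the 201 peaks of the 41 genes 6 were shared. Over all peaks the share was 3.02% for Zhx1-KO hnRNPA1, 6.5% for ZHX1 and 7.73% for control hnRNPA1, so sharing does not set the 41 genes apart. The Egfr and Grb2 pairs joined Zhx1-KO hnRNPA1 with ZHX1, and the Efs pair joined Zhx1-KO hnRNPA1 with control hnRNPA1.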

How the data were processed

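The authors trimmed reads with cutadapt 1.18, dropped those under 50 bases and aligned the rest to GRCm38 (GENCODE M19) with Bowtie2 2.3.5.1 before removing unmapped, multiply placed and duplicate reads. Further tools in the submitters' processing notes are deepTools 3.3.0 and BWA 0.7.12-r1039, whose role is not stated. Which peak caller and threshold were used, whether inputs served and how peaks got names was not given in the sources used here. The values in the deposited lists are other than signal or score: positions were read from their start and end columns, per library and without pooling. Starts were raised by 1 on reading, so the positions printed here are 1-based.

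Genes and transcript starts came from GENCODE M21, and all counts within 2 kb of a start used these. Curated starts came from RefSeq (GRCm38.p6). Distances run from the peak centre. Overlap meant at least 1 bp, a promoter 2 kb to either side of a start, and copy number the median over words of 32 bases on either strand, a step tested on simulated data. Primers came from the study's supplement. Only the shares of each list named for a member or inside a member gene carry Wilson 95% intervals. These treat peaks as independent, although several fall in the same gene, so they may be too narrow. No test was run, since groups had 1 library each. The members and lists were chosen with earlier results of these data known. Named were the 9 members, up to 8 pathway genes in list order with a peak within 2 kb of a start or a shared peak, the gene with the most peaks per list, and up to 3 genes with the peak numbers of Src and the closest length. A gene picked by that rule is not reported here. Computing used pandas 2.3.3, numpy 2.4.6 and numba 0.67.0 under Python 3.11.15, with plots from matplotlib 3.10.9.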

Additional observations from a re-analysis of the deposited data

How the results depend on the processing

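Assigning peaks by position in the gene gave 14 Zhx1-KO hnRNPA1 and 5 control hnRNPA1 peaks, and 3 members with a ZHX1 peak and 3 with a control hnRNPA1 peak. Keeping only peaks at least as wide as the median of their list left 3 Zhx1-KO hnRNPA1 peaks on 2 members, 5 ZHX1 peaks, and 2 control hnRNPA1 peaks on 2 members. Lists cut to equal length by width left 2 Zhx1-KO hnRNPA1 peaks on 2 members. Within 5 kb of a start there were 2 peaks in each list. With words of 50 bases 1 control hnRNPA1 peak was multi-copy. Counting peaks at most 500 bp apart as shared gave 1 Zhx1-KO hnRNPA1 peak with a ZHX1 neighbour, at Fyn. The other 32 values under an alternative were within 1.5 times of those reported. No paired analysis was possible because each group had 1 library and no comparison came from a test. Depth is unknown, so absence of a peak cannot be told apart from too few reads.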
